A study of Mus musculus with 64 samples.

Results

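The second principal component (PC2) of the liver transcriptome set 6 of the 20 livers of the continuous cohort apart from the other 14, in all 4 groups of genotype and treatment. The 6 mice, numbered 1, 2, 3, 4, 7 and 8 and called the high-PC2 mice below, were chosen by their liver PC2 scores. Liver differences between them and the other 14 mice are therefore a description of the choice and carry no test. The hippocampus of the same mouse numbers and the mouse number itself did not enter the choice, and these were tested. Library measures were tested too, but those of liver come from the libraries whose counts chose the mice.

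The study crossed C57BL/6J males with 129sv females that carried a Ube3a deletion of exon 5 on the paternally inherited allele, which gave F1 hybrid wildtype (WT) offspring and Angelman syndrome (AS) offspring without a functional maternal copy. Adult male mice aged 10 to 18 weeks, kept under 12 h of light from 7:00, received on day 0 a subcutaneous pellet of 20 mg corticosterone (CORT) with 80 mg cholesterol, or a vehicle pellet of 100 mg cholesterol. Liver and hippocampus were collected on day 6 and sequenced as stranded mRNA libraries, with 5 mice per group. The high-PC2 mice comprised WT vehicle mice 1 and 4, AS vehicle mouse 2, WT CORT mouse 3, and AS CORT mice 7 and 8, which left 3 to 4 other mice in each group. The deletion is inherited through the germline and is not limited to a tissue, and all mice, WT included, shared the hybrid background and the surgery.

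The circadian clock runs in nearly every cell as a loop of transcription and repression. BMAL1, encoded by Arntl, pairs with CLOCK or NPAS2 and activates the Per, Cry, Nr1d and Dbp genes through E-box sequences. The products of the Per, Cry and Nr1d genes in turn repress BMAL1 activity or Arntl transcription. Liver is known for a clock output of very high amplitude, which is shaped by feeding and by glucocorticoids, whereas most of the brain outside the suprachiasmatic nucleus shows weaker oscillations.

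The promoters below belong to clock genes whose liver levels or hippocampal levels are described in what follows. Sequences are RefSeq windows on GRCm38.p6 that start 250 bases before the transcription start, written 5′ to 3′ on the strand of the gene and ended where an annotated exon of the gene begins. Capitals mark matches on either strand to the E-box CACGTG, the E′-box CACGTT or the D-box TTATGTAA or TTACGTAA.
Ciart: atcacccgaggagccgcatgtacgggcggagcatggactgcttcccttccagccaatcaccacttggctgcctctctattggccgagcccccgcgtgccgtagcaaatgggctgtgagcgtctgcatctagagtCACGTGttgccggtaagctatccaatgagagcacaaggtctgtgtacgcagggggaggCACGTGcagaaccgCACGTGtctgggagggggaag
Per1: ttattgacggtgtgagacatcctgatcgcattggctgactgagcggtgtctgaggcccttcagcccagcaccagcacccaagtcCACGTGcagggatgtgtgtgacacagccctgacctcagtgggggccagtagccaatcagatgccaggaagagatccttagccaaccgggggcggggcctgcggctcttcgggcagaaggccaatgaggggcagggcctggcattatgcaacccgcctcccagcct
Tef: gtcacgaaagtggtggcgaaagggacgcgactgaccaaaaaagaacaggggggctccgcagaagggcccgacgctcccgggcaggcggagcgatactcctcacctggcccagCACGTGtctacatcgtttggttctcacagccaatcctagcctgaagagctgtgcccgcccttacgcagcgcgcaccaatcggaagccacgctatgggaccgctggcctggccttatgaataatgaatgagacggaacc
Nr1d1: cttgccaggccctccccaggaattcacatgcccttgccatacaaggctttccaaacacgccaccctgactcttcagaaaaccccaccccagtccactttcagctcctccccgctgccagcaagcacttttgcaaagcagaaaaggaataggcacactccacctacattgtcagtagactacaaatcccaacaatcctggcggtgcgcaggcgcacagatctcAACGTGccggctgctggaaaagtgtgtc
Per3: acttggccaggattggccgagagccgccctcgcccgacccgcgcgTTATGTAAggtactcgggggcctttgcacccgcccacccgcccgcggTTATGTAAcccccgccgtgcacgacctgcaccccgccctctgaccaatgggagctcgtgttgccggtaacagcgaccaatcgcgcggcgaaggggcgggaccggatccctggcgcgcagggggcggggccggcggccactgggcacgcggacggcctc
Dbp: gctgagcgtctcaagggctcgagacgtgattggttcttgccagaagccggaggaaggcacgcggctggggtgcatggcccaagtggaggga
Arntl: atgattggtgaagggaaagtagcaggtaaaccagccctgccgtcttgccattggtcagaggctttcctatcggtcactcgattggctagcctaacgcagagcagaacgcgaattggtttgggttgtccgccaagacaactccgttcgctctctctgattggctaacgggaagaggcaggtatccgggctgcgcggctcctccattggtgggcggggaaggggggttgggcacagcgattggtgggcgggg
The windows lie at chr3:95882252-95882478 on the minus strand (Ciart), chr11:69098699-69098947 on the plus strand (Per1), chr15:81811164-81811413 on the plus strand (Tef), chr11:98775378-98775627 on the minus strand (Nr1d1), chr4:151044666-151044915 on the minus strand (Per3), chr7:45704997-45705087 on the plus strand (Dbp) and chr7:113207215-113207464 on the plus strand (Arntl). Ciart held 3 copies of CACGTG, at 116, 58 and 44 bases before its start. Per3 held 2 copies of TTATGTAA, and Nr1d1 held 1 E′-box. Dbp and Arntl held none of these letters in the windows shown. Per1 has a second window, not shown, that held none of them either. Promoters of 16 of the 19 core clock genes were in the RefSeq table, 21 in all, and CACGTG occurred in 6 of these 21 and in 6.02% of all 32851 promoters. A gene was counted once per listed start, and Tef, with 2 starts, gave 2 of the 6. CACGTT occurred in 3 of 21 against 3.85%, and the D-box in 1 of 21 against 0.931%. CACGTG is its own reverse complement and shares no match with CACGTT. The RORE letters TAGGTCA, bound by the ROR and REV-ERB receptors, occurred in 1 of 21 against 2.23%, in the Nfil3 window at a place inside an annotated exon. These counts describe letters in a window and no binding was measured.

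PC1 held 55.0% and PC2 24.5% of the variance of the 500 most variable genes. The lowest score among the high-PC2 mice was 6.22 (AS CORT mouse 8) and the highest among the others was -3.02 (AS CORT mouse 18), so a gap of 9.23 separated them. The 3 vehicle mice of the 6 scored between 17.8 and 21.1, above the 3 CORT mice of the 6, which scored between 6.22 and 8.72. The other 14 mice lay between -8.90 and -3.02 in all groups. The PC2 score of CORT mice was -1.29 ± 6.47 against 1.29 ± 12.4 in vehicle mice, and that of AS mice -1.02 ± 9.001 against 1.02 ± 10.7 in WT mice (SD, n = 10 each). These scores chose the mice, 3 of them in each treatment and 3 in each genotype, so the means are given without a test.

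**Figure D1:**
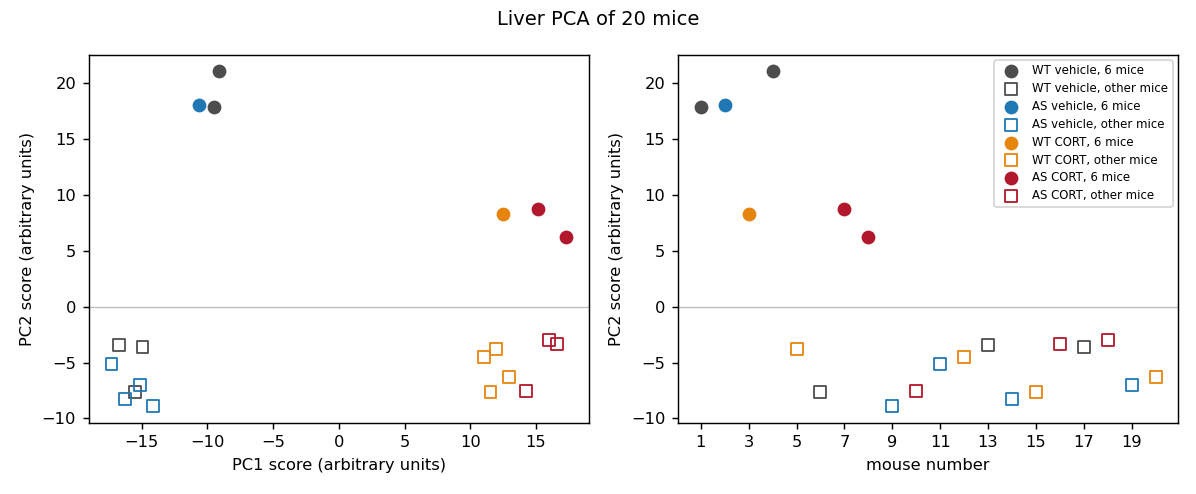
Liver scores of 20 mice (1 point each) on PC1 against PC2, and PC2 against mouse number, in arbitrary units. Filled circles are the 6 high-PC2 mice and open squares the other 14, coloured by group. The 6 lie between 6.22 and 21.1 on PC2, the other mice between -8.90 and -3.02, and no high-PC2 mouse has a number above 8.

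The high-PC2 mice had the lowest mouse numbers of their group in every group. Their mean number was 4.17 ± 2.79 (SD, n = 6, range 1 to 8) against 13.2 ± 4.66 (n = 14, range 5 to 20), a difference of -9.05 (two-sided exact permutation test within groups, p = 8e-04, 2500 arrangements). Of the 8 mice numbered up to 8, only mice 5 and 6 (WT CORT and WT vehicle) were not high-PC2 mice. The sources used here do not give what the number stands for, nor the hour of sacrifice of this cohort, so order of handling and time of day were not tested. Liver libraries had 24264600 to 24735400 reads and hippocampal libraries 21779500 to 24716300 reads, rounded to 100. In 14 tests of library measures over both tissues, the share of reads that aligned to more than 1 place was lower in the high-PC2 livers, at a median of 7.50% against 7.95% (adjusted p = 0.0476, exact permutation test), and higher in their hippocampi, at 4.98% against 4.43% (adjusted p = 0.0233, exact permutation test). Neither passed when all 20 hippocampal libraries entered the 14 tests, and their part in the results below was not tested. The liver share comes from the libraries whose counts chose the mice, so its p is no independent evidence. Ube3a, counted over the whole gene and not over the deleted exon alone, was lower in AS livers (28.5 to 38.6 CPM) than in WT livers (41.8 to 54.4 CPM), while hippocampal values overlapped (AS, 69.2 to 97.5 CPM; WT, 72.9 to 98.0 CPM).

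In liver, levels are given as CPM, gene counts scaled to a common library size after TMM normalization, and 12273 genes passed the filter on low counts. The values that follow come from the contrast that chose the mice. Of these genes, 72 (0.587%) were higher in the high-PC2 mice by at least 1 log2 unit and 214 (1.74%) were lower by at least as much, and the median of all genes was -0.01. By a second description, 577 genes (4.7%) were above every other mouse of the same group in each of the 4 groups, and 568 (4.63%) were below. Both descriptions together held for 40 genes that were higher and 111 that were lower.

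Clock genes held the largest differences. Of the 19 genes of the core clock list, all measured, 9 were at least 1 log2 unit higher and 4 lower, and the list median was 0.83. Dbp, an output transcription factor of the PAR bZIP family that drives many metabolic genes, showed the highest liver difference of any gene with at least 5 CPM on average (6.20). In vehicle mice Dbp was 204 CPM in mouse 1 and 202 CPM in mouse 4, both WT, and AS mouse 2 had 237 CPM. In the other vehicle mice it was 1.74 to 3.84 CPM in WT and 0.653 to 1.07 CPM in AS mice. In CORT mice Dbp was 75.4 CPM in WT mouse 3, and AS mice 7 and 8 had 73.1 and 60.0 CPM, against 0.768 to 4.21 CPM in the other WT mice and 1.23 to 2.18 CPM in the other AS mice. No values of the 2 sets of mice overlapped, and the vehicle mice of the 6 were higher than the CORT mice of the 6.

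Ciart, a repressor of CLOCK and BMAL1, was 26.4, 22.9 and 21.7 CPM in vehicle mice 1, 4 and 2, 17.2 CPM in WT CORT mouse 3, and 16.97 and 20.6 CPM in AS CORT mice 7 and 8. The other vehicle mice had 0.0964 to 0.590 CPM, which is as few as 2 counts, and the other CORT mice 1.97 to 5.09 CPM. The difference was 3.90. Per1 and Per3, whose products repress CLOCK and BMAL1, differed by 2.60 and 3.82. Per1 was 50.05, 54.8 and 51.8 CPM in vehicle mice 1, 4 and 2, and 59.8, 44.4 and 66.3 CPM in CORT mice 3, 7 and 8. The other vehicle mice had 0.590 to 11.3 CPM, but the other CORT mice had 20.2 to 39.1 CPM, close to the high-PC2 mice. Per2 differed by 1.62, Bhlhe41 by 2.60, Tef by 2.33, Nr1d1 by 1.29 and Nr1d2 by 1.42. Nr1d1, which encodes the repressor REV-ERBα, was 109 and 79.4 CPM in mice 1 and 4 of the WT vehicle group against 42.1 to 83.8 CPM in the others, so these overlapped.

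The activating arm was low in the same mice. Npas2, the CLOCK paralogue, had the lowest difference of all (-5.35): it was 0.0503 to 0.995 CPM in the high-PC2 mice, which is 1 to 19 counts, against 7.25 to 19.8 CPM in the others, so this value rests on few counts. Arntl was 0.289, 0.603 and 0.481 CPM in vehicle mice 1, 4 and 2, 4.31 CPM in WT CORT mouse 3, and 5.03 and 4.33 CPM in AS CORT mice 7 and 8. By group the others had 39.9, 30.5 and 31.2 CPM (WT vehicle, mice 6, 13 and 17), 36.2, 30.4, 40.6 and 33.4 CPM (AS vehicle, mice 9, 11, 14 and 19), 26.4, 29.7, 31.3 and 26.5 CPM (WT CORT, mice 5, 12, 15 and 20) and 31.5, 28.6 and 29.0 CPM (AS CORT, mice 10, 16 and 18). The vehicle mice of the 6 were lower than their CORT mice, and the difference was -3.74. Nfil3, an antagonist of the PAR bZIP factors, differed by -1.68, Clock by -1.20 and Cry1 by -0.92. Hlf at 0.82, Bhlhe40 at 0.83, Cry2 at 0.49 and Rora at -0.51 stayed under 1 log2 unit.

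**Figure D2:**
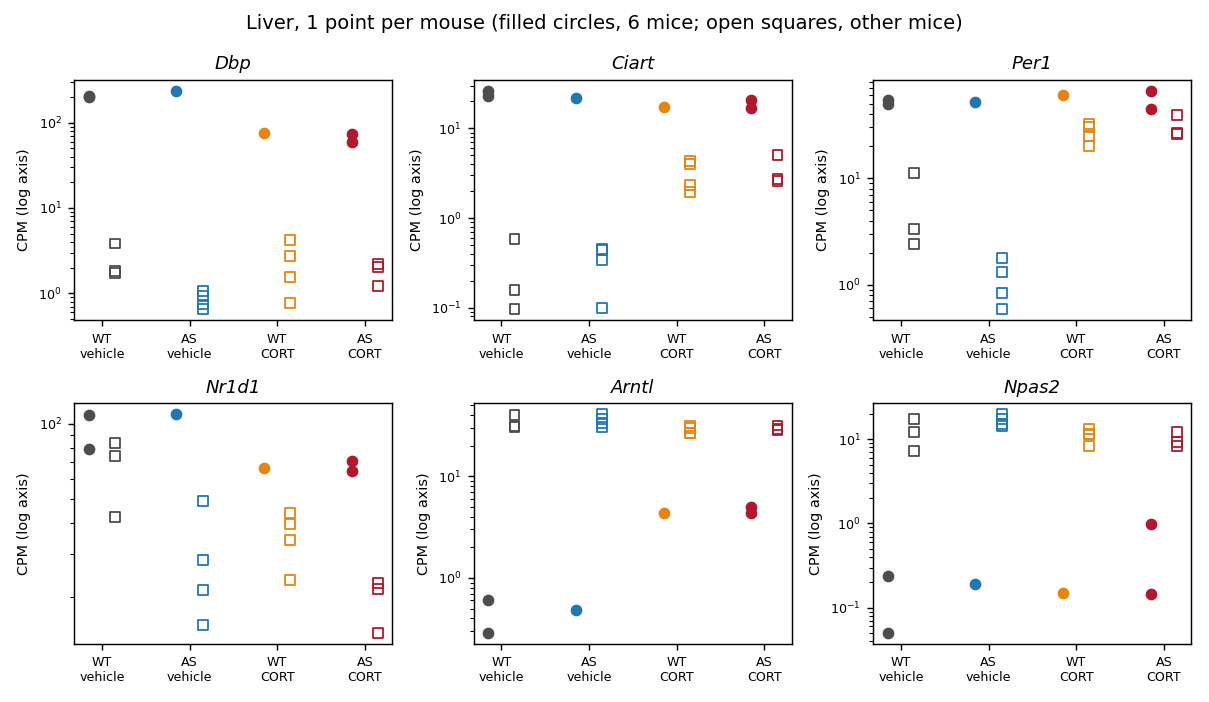
Liver CPM (log axis) of 6 clock genes in each of the 20 mice by group. Filled circles (6 high-PC2 mice) lie above the open squares (other mice) for Dbp, Ciart and Per1, with Dbp at 60.0 to 237 against 0.653 to 4.21 CPM, and below them for Arntl and Npas2, while Nr1d1 overlaps in WT vehicle mice.

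The size of the description differed between treatments. All 19 clock genes had the same sign in vehicle and in CORT mice, and 18 of 19 were larger in size in vehicle mice, with a median size of 2.21 against 1.14. Per1 differed by 4.10 within vehicle mice and by 0.98 within CORT mice, and Ciart by 6.20 and 2.44. Nr1d1 went the other way, at 1.14 and 1.46. Of the 286 genes past 1 log2 unit, 244 were larger in vehicle mice. These are values of the chosen contrast, and the difference between treatments was not tested.

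Clock output genes, which the clock drives without being part of its loop, were described next. Of the 20 genes of this list, 19 were measured, of which 10 were at least 1 log2 unit higher and 5 lower (median 1.10). Usp2, a ubiquitin protease with strong circadian expression, was 79.0 and 78.6 CPM in mice 1 and 4, 65.4 CPM in mouse 2, 64.2 CPM in mouse 3, and 51.6 and 62.2 CPM in mice 7 and 8. The others had 0.893 to 2.51 CPM with vehicle and 10.97 to 30.9 CPM with CORT. Rgs16 (3.18), a regulator of G protein signalling, Wee1 (2.84), a cell cycle kinase, Noct (2.61), a phosphatase of NADP(H), Alas1 (2.30), the first enzyme of haem synthesis, and Coq10b (2.08) were also among the 12 highest genes, as was Pfkfb3 (2.28), which drives glycolysis and is not on the list. Without AS vehicle mouse 2 the Alas1 value was 1.47. Cyp7a1, the rate-limiting enzyme of bile acid synthesis, differed by 2.03 and was 372, 305 and 189 CPM in vehicle mice 1, 4 and 2 against 12.4 to 75.7 CPM in other vehicle mice. In CORT mice 3, 7 and 8 it was 120, 116 and 107 CPM against 50.8 to 104 CPM.

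Outside the clock list, the lowest genes included Cdkn1a, the p21 inhibitor of the cell cycle (-3.81), Elovl3, a fatty acid elongase (-3.45), and Pdk4, which shifts fuel use from glucose to fat (-2.81). Cdkn1a was 0.722, 0.805 and 0.770 CPM in vehicle mice 1, 4 and 2 against 5.15 to 15.2 CPM, and 5.35, 8.54 and 14.2 CPM in CORT mice 3, 7 and 8 against 89.0 to 142 CPM. Elovl3 was 34.0 to 48.8 CPM in the 3 vehicle mice against 491 to 714 CPM, and 15.7 to 55.0 CPM in the 3 CORT mice against 118 to 622 CPM. Loxl4 (-2.95), Tubb2a (-2.61), Chka (-2.59), Asap2 (-2.53), Dtx4 (-2.25) and Egr1 (-2.20) were also among the 12 lowest. Egr1, an immediate early transcription factor, was 0.914 to 2.74 CPM in the vehicle mice of the 6 against 5.10 to 27.6 CPM in other vehicle mice, whereas CORT mice of both sets had 0.208 to 2.11 CPM.

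The lists of other processes are given beside the shares of all genes, 0.587% higher and 1.74% lower by 1 log2 unit, and the same contrast chose the mice, so nothing is read from their counts. Of 29 measured fasting genes, 1 was higher and 3 lower, with a median of 0.02. Lpin1 (1.38), Pdk4, Igfbp1 (-1.92) and Fgf21 (-1.14) were the 4 genes past 1 log2 unit. Lipogenesis and feeding genes (26) had 1 higher and 3 lower with a median of 0.00, led by Pnpla3 (-2.25), Elovl5 (-1.42), Thrsp (1.16) and G6pdx (-1.04). The 25 cholesterol synthesis genes had a median of -0.54 and a range from -1.55 (Hmgcs1) to 0.28, 2 of them, Hmgcs1 and Mvd (-1.18), passed -1, and their sums overlapped (2629 to 5185 against 3131 to 7899 CPM). None of 30 acute phase genes passed 1 log2 unit in either direction, with a median of -0.14 and a range from -0.55 (Fgg) to 0.52 (Cebpd). None of 22 interferon-stimulated genes did (median -0.17), nor any of 18 heat shock genes (median 0.07, with Hspa1b highest at 0.996). Of 24 genes of ER stress, 1 was lower (Sdf2l1, -1.04, median -0.29), and of 14 immediate early genes, 2 were lower (Egr1 and Gadd45g, -1.57). Glucocorticoid targets (16) had a median of -0.01, with Per1 and Gadd45a (1.01) higher and Cdkn1a lower, while Fkbp5 was 0.64, Sgk1 -0.55, Tsc22d3 0.03 and the receptor gene Nr3c1 0.00. The 13 measured genes of p53 and oxidative stress had a median of -0.03, with Gadd45a higher and Cdkn1a lower. Their sums did not overlap, at 748 to 798 CPM in the high-PC2 livers against 897 to 1093 CPM in the others. Bile acid genes (17 measured, median -0.01) included Cyp7a1 and the lower Hsd3b7 (-1.46), and growth hormone and male liver genes (20 measured, median 0.08) included Elovl3 as their 1 gene past the limit. No gene of 22 measured xenobiotic enzymes (median -0.02), of 8 measured cell cycle genes (median 0.10) or of 13 periportal genes (median 0.06) passed the limit, and of 14 pericentral genes (median 0.14) only Slc1a4 did (-1.22).

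**Figure D3:**
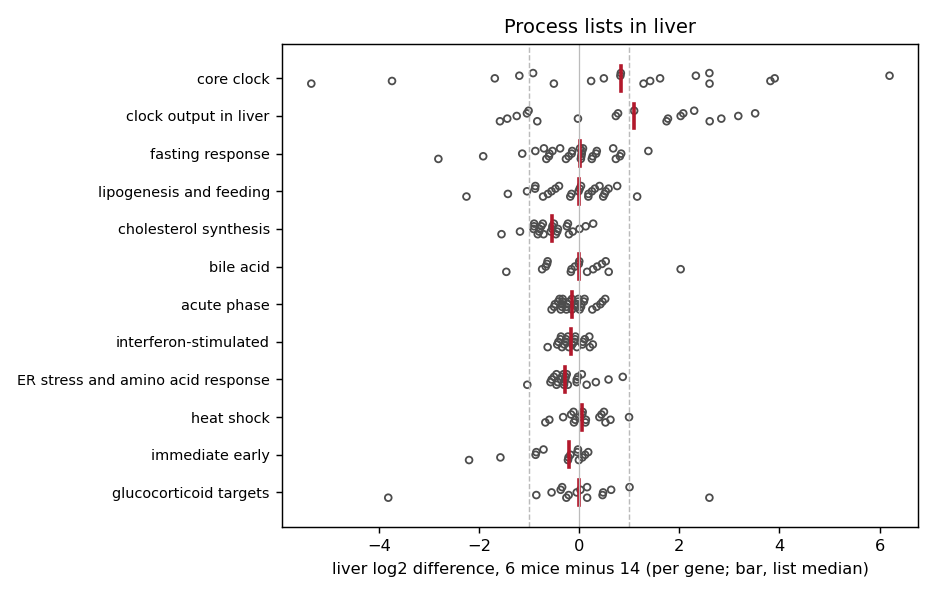
Liver log2 differences (6 high-PC2 mice minus 14) of the genes of 12 process lists, 1 point per gene, with a red bar at each list median and dashed lines at 1 log2 unit. The core clock list (median 0.83) spreads from -5.35 to 6.20 and the clock output list (1.10) from -1.58 to 3.51, whereas acute phase genes stay between -0.55 and 0.52.

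Markers of other cells were compared as well. Of 12 hepatocyte markers none passed 1 log2 unit, with summed levels of 106151 to 150280 CPM in the high-PC2 livers and 103760 to 154710 CPM in the others, and none of 12 Kupffer cell, 12 endothelial or 12 stellate cell markers did. Of 4 measured mesothelium markers 3 were lower, led by Msln, but their sum was 0.385 to 15.6 CPM against 1.10 to 21.5 CPM, so the sets overlapped. The 5 cholangiocyte markers had a median of -0.88 at sums of 44.01 to 67.8 against 47.9 to 119 CPM. In bulk tissue, fewer cells of a type and less RNA per cell cannot be told apart, and the part of these cells in the result was not tested.

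The hippocampus of the same mouse numbers, which had not entered the choice of mice, was compared next. All 6 high-PC2 mice and 12 others were compared, without mice 9 and 13, which the study left out, and the genotype and treatment labels of liver and hippocampus matched in 20 of 20 mice. Of 14949 genes tested, 9 (0.0602%) were higher and 6 (0.0401%) lower in the high-PC2 mice at an adjusted p under 0.05, and 1521 (10.2%) had an unadjusted p under 0.05. Of the 19 core clock genes, 4 rose and none fell, and 10 had an unadjusted p under 0.05.

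Nr1d1 rose by 0.54 ± 0.05 (SE, adjusted p = 1.14e-05). It was 119, 115 and 112 CPM in vehicle mice 1, 4 and 2, 117 CPM in WT CORT mouse 3, and 119 and 108 CPM in AS CORT mice 7 and 8, whereas the other 12 mice had 71.2 to 89.7 CPM. By group, the others had 77.7 and 84.8 CPM (WT vehicle, mice 6 and 17), 71.2, 85.7 and 73.7 CPM (AS vehicle, mice 11, 14 and 19), 78.5, 78.3, 79.1 and 89.7 CPM (WT CORT, mice 5, 12, 15 and 20) and 71.6, 79.2 and 82.9 CPM (AS CORT, mice 10, 16 and 18). The 6 mice were therefore above the others in every group. Ciart rose by 0.92 ± 0.08 (adjusted p = 1.14e-05), at 11.03, 13.9 and 12.3 CPM in vehicle mice 1, 4 and 2 and 11.7, 11.4 and 11.5 CPM in CORT mice 3, 7 and 8, against 4.80 to 7.49 CPM in the others. Dbp rose by 0.75 ± 0.08 (adjusted p = 0.000106), at 84.1, 85.6 and 84.7 CPM in vehicle mice 1, 4 and 2, and 64.3, 69.7 and 53.8 CPM in CORT mice 3, 7 and 8, against 36.1 to 50.8 CPM. Nr1d2 rose by 0.35 ± 0.05 (adjusted p = 0.0172), at 72.6 to 87.9 CPM against 55.1 to 71.5 CPM. For these 4 genes the values of the 6 mice lay above those of all 12 others, while the differences in hippocampus were 0.35 to 0.92 and those in liver 1.29 to 6.20.

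The activators did not pass the test in hippocampus. Arntl differed by -0.25 ± 0.07 (adjusted p = 0.222), at 25.5 to 31.6 CPM against 27.2 to 38.7 CPM. Npas2, with the lowest liver value, differed by 0.10 ± 0.09 (adjusted p = 0.787), and Clock by -0.03 ± 0.05. Per1 differed by 0.28 ± 0.08 (adjusted p = 0.205), Per2 by 0.24 ± 0.08, Bhlhe40 by 0.31 ± 0.09, Nfil3 by -0.32 ± 0.10 and Cry2 by 0.12 ± 0.03. Per3 was at 0.00 ± 0.09 and Tef at 0.00 ± 0.05, beside liver values of 3.82 and 2.33. Bhlhe41 was at 0.19, Hlf at 0.12, Rora at 0.00 and Cry1 at -0.04, and none of these passed the test.

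**Figure D4:**
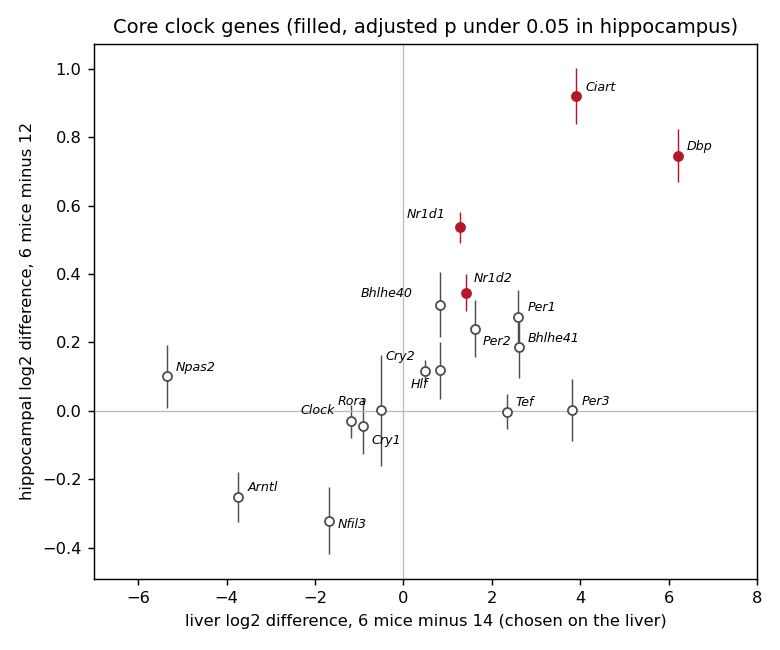
Log2 differences of core clock genes in liver (6 mice minus 14, the chosen contrast) against hippocampus (6 minus 12, with an SE derived from the edgeR F value). Filled red points passed the adjusted p of 0.05 in hippocampus; Ciart reaches 0.92 and Dbp 0.75 there, while Npas2, at -5.35 in liver, is at 0.10.

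The other 11 genes that changed in hippocampus were of different kinds. Rbm3 (0.48 ± 0.08, adjusted p = 0.0197) and Cirbp (0.25 ± 0.04, adjusted p = 0.0197), RNA-binding proteins induced by a drop in temperature, rose. Rbm3 was 74.7 to 98.0 CPM against 46.6 to 74.2 CPM. In liver Rbm3 was at 0.47 and Cirbp at -0.50. The metallothioneins Mt1 (0.32 ± 0.04, adjusted p = 0.00343) and Mt2 (0.44 ± 0.07, adjusted p = 0.0197), which bind zinc and copper and are induced by glucocorticoids, rose as well, and were above every other mouse of the same group in each group, although the ranges over all mice overlapped (Mt1, 221 to 434 against 174 to 364 CPM). The mitochondrial gene mt-Nd4 rose by 0.23 ± 0.04. The endoplasmic reticulum chaperones Hsp90b1 (-0.30 ± 0.05), Calr (-0.34 ± 0.06) and Pdia3 (-0.22 ± 0.04) fell, and Hsp90b1 was 196 to 205 CPM in the 6 mice against 227 to 279 CPM. Rbm28 (-0.27 ± 0.04), Hnrnpm (-0.22 ± 0.04) and Tubd1 (-0.51 ± 0.09) fell too. In the fits that left out 1 mouse, the call was lost in 13 for Pdia3, 12 for Hnrnpm, 11 for Tubd1 and 10 for Calr. It was lost in 5 for Rbm3, in 4 each for Cirbp, Mt2 and mt-Nd4, in 3 each for Hsp90b1 and Rbm28, and in 1 for Mt1. Of all genes tested, 11 (0.0736%) were higher in all 6 mice than in all 12 others and 14 (0.0937%) lower. Of the 15 changed genes, 7 and 5 were among these, a count that their selection on the same contrast favours. Of the 15, 10 had the sign of their liver difference, where 54% of the 11017 genes tested in both tissues did, and Cirbp, Mt2 (-0.34 in liver) and mt-Nd4 (-0.30) were among those with the opposite sign. The 4 clock genes above were the members of the 15 that passed 1 log2 unit in liver. Of the liver genes past 1 log2 unit, 55 higher and 144 lower genes were tested in hippocampus, of which 4 and 0 changed.

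**Figure D5:**
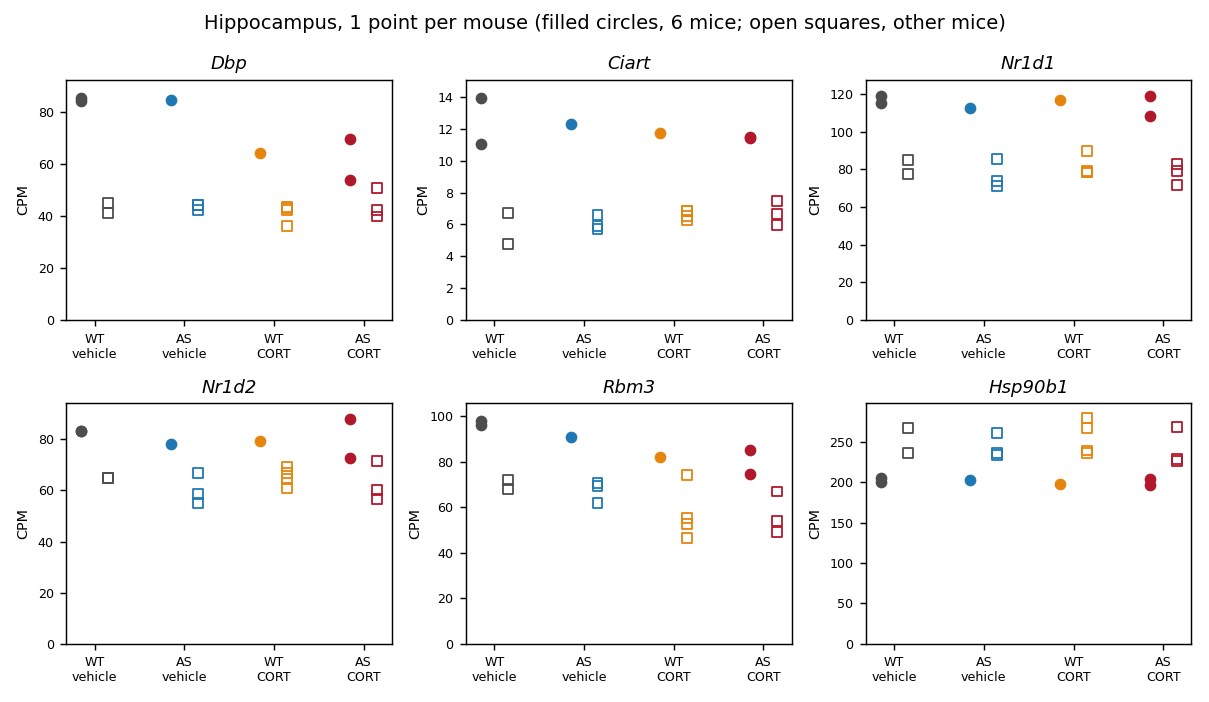
Hippocampal CPM of 6 genes in each of 18 mice by group, on axes from 0. Filled circles (6 high-PC2 mice) lie above the open squares (12 others) for Dbp, Ciart, Nr1d1, Nr1d2 and Rbm3, and below them for Hsp90b1 (196 to 205 against 227 to 279 CPM).

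The process lists were counted in hippocampus too, where 10.2% of all genes had an unadjusted p under 0.05. Of 22 tested genes for ER stress, 3 fell and none rose (10 with an unadjusted p under 0.05, median -0.11). Their sums, which include the 3 that fell, did not overlap, at 1809 to 1928 CPM in the 6 mice against 1963 to 2527 CPM in the others. None of 19 heat shock genes passed the test, with 9 at an unadjusted p under 0.05 and a median of -0.10. The median over all genes was 0.00. Of 15 clock output genes none passed the test, with 8 at an unadjusted p under 0.05 (median 0.07), and 1 followed the liver PC2 score in the fit described next. Of 14 glucocorticoid targets 2 rose and 7 had an unadjusted p under 0.05 (median 0.10). No gene of the fasting (19 tested, 2 at an unadjusted p under 0.05), lipogenesis (24 and 2), cholesterol (24 and 0), immediate early (21 and 2) or interferon (14 and 1) list passed the test by edgeR, and of 10 acute phase genes the 2 called were Mt1 and Mt2, which the list of glucocorticoid targets also holds. Markers of choroid plexus, which is a dissection neighbour of the hippocampus, had a median of -2.03 with 6 of 7 genes at an unadjusted p under 0.05 and none past the threshold, and their sum was 38.4 to 334 CPM against 52.98 to 2911 CPM, so the sets overlapped. The part of such tissue in the result was not tested. The 9 hippocampal neuron markers had a median of 0.00 and sums of 9109 to 10597 against 8616 to 10183 CPM. The 8 myelin markers lay between -0.33 and -0.21 (median -0.26, none at an unadjusted p under 0.05), with sums of 2269 to 6693 against 2409 to 7037 CPM. The 10 thalamus and striatum markers had a median of -0.35, 1 at an unadjusted p under 0.05 and sums of 86.4 to 128 against 87.1 to 266 CPM.

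The liver PC2 score of the same mouse number was then used as a continuous measure in hippocampus. In this fit 36 genes (0.241%) followed it, 26 up and 10 down, with 1501 at an unadjusted p under 0.05, and 13 of these had also passed the comparison of 6 against 12 mice. Per 10 score units, Dbp rose by 0.39 ± 0.03 (adjusted p = 1.07e-06), Ciart by 0.47 ± 0.04 (adjusted p = 1.35e-05), Nr1d1 by 0.26 ± 0.03 (adjusted p = 0.000838) and Nr1d2 by 0.17 ± 0.03 (adjusted p = 0.0250). Per1 passed in this fit, at 0.17 ± 0.03 (adjusted p = 0.0471). Atp10a, a phospholipid transporter (0.28 ± 0.04, adjusted p = 0.00209), and Xdh, xanthine dehydrogenase (0.36 ± 0.05, adjusted p = 0.00501), followed the score although they had not passed in the first comparison. Within vehicle mice the 6 differed from the others by 1.10 for Xdh and 0.75 for Atp10a, and within CORT mice by 0.14 and 0.26, while the scores of the 6 were higher in vehicle mice. Neither gene passed the test of the difference between treatments (adjusted p = 0.313 for Xdh and 0.9997 for Atp10a). Xdh was 6.67 to 12.97 CPM in the 6 mice and 3.30 to 13.2 CPM in the others, so the sets overlapped.

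Principal components of the hippocampus were compared in the same way. None of the first 5 principal components of the 500 most variable genes differed between the 6 and 12 mice by the two-sided exact permutation test within groups, with the smallest p at PC2 (29.6% of variance, p = 0.0542, adjusted p = 0.271). With all 14949 genes, PC4 (6.81% of variance) differed (exact permutation test, adjusted p = 0.00833). No gene showed an interaction of the high-PC2 term with CORT at an adjusted p under 0.05 by edgeR, with 470 at an unadjusted p under 0.05. Among the 8 mice numbered up to 8, only the WT groups hold both kinds of mice, so with group as covariate the contrast was WT vehicle mice 1 and 4 against mouse 6 and WT CORT mouse 3 against mouse 5, and no AS mouse entered it. The differences were 0.59 ± 0.07 for Nr1d1, 1.10 ± 0.18 for Ciart and 0.95 ± 0.12 for Dbp, with adjusted p of 0.109, 0.191 and 0.109, and no gene passed the threshold (1718 at an unadjusted p under 0.05). Mice 5 and 6 are the only others with such low numbers, so beyond these the mouse number and the choice of mice cannot be told apart.

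The CORT effect on liver was tested with and without a term for the high-PC2 mice, which were spread evenly over the treatments (3 in each). The term was chosen on these same livers, so the counts with it are no independent evidence. CORT altered 4549 of 12273 genes (37.1%) in the 4-group fit and 5383 (43.9%) when a term for the high-PC2 mice was added, and all 4549 remained called in the second fit, in which the common coefficient of variation was 12.8% in place of 17.1%. Of the 19 core clock genes, none was called in the 4-group fit by edgeR, and 0 had an unadjusted p under 0.05. Among the 14 other mice alone, CORT altered 4611 of all genes (37.6%). Since clock genes led the axis that chose the mice, their values with the term or without the 6 mice are given with no test. The CORT difference of Per1 was 1.15 in the 4-group fit (adjusted p = 0.194), 2.17 with the term and 3.49 in the 14 mice. Ciart had 0.15, 1.23 and 3.41 in the same fits, Tef 0.16, 0.66 and 1.08, and Nr1d1 -0.55, -0.60 and -0.73. Dbp had -1.54, -0.67 and 0.51.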

How the data were processed

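Stranded libraries were sequenced with 100 bp paired-end reads, and the authors aligned them to GRCm38 (mm10) with STAR and counted reads per gene with HTSeq in BioWDL 5.0.0. The submitters' processing notes also name FastQC and MultiQC, and other versions, the annotation release and the strand setting are not given in the sources used here. The deposited values are raw counts per gene for each library, and the 5 HTSeq summary rows were left out of library sizes and tests. Gene symbols were matched by GENCODE M21 for 55480 of 55573 identifiers.

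Counts were analysed in R 4.3.3 with edgeR 4.0.16 (TMM normalization, quasi-likelihood F test, Benjamini-Hochberg adjustment over all genes tested, threshold 0.05), with group as covariate. The SE given with a hippocampal log2 difference or slope is its absolute value divided by the square root of F. A gene was tested where 3 or more mice of 1 group each exceeded 20 normalized counts. Principal components used variance-stabilized counts of the 500 most variable genes (DESeq2 1.42.0). Single values were tested by two-sided exact permutation of mice within groups. DESeq2 and limma-voom (limma 3.58.1) were alternatives, and the scripts were tested on simulated data.

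Gene counts totalled 18612600 to 20868900 per liver library and 19112900 to 21783000 per hippocampal library (rounded to 100), so that 3 counts were 0.144 to 0.161 CPM in liver. The labels name each mouse as a separate sample but do not state that equal numbers in liver and hippocampus are the same mouse. The members, gene lists and tests were chosen with earlier results of these data known. The text names the core clock genes, up to 6 genes per list with the largest liver difference, the 12 highest and 12 lowest liver genes with a mean of at least 5 CPM, the 10 smallest p in each hippocampal test, and Ube3a, Nr3c1, Fkbp5, Tsc22d3, Sgk1 and Per1. Some genes that this rule names are not reported here. Hippocampal genes called outside this rule were named after their values were seen.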

Additional observations from a re-analysis of the deposited data

Results flagged for a closer look

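Libraries far from the others of their group were listed by Dixon's ratio of gap to range, in groups of 4 or 5 mice. The ratio was taken for a set of genes, not all of them with values per mouse above, and for the liver PC2 score. It marked 22 of 88 groups. For liver this is a description and no test. Chance marks about 1 in 20 groups, a rate that cannot be set against this count, since AS vehicle mouse 2 and WT CORT mouse 3 are the only high-PC2 mice of their groups and were chosen on the liver, and their liver marks repeat that choice.

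AS vehicle mouse 2 stood apart in liver for Dbp (237 CPM), Ciart (21.7 CPM), Per1 (51.8 CPM), Per3 (52.2 CPM), Usp2 (65.4 CPM), Cyp7a1 (189 CPM), Npas2 (0.192 CPM), Arntl (0.481 CPM) and the PC2 score (18). In hippocampus this mouse stood apart in genes already described, Dbp (84.7 CPM), Ciart (12.3 CPM) and Arntl (25.9 CPM).

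WT CORT mouse 3 stood apart in liver for Dbp (75.4 CPM), Ciart (17.2 CPM), Per3 (23.7 CPM), Usp2 (64.2 CPM), Arntl (4.31 CPM), Cdkn1a (5.35 CPM) and the PC2 score (8.28). In hippocampus it stood apart for Dbp (64.3 CPM) and Ciart (11.7 CPM). The only mark outside the 6 mice was liver Pdk4 in AS CORT mouse 10 (21.8 CPM).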

How the results depend on the processing

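The 6 mice lay apart on 1 liver component in 23 of 23 alternatives, which was PC2 except with group means removed, where it was PC1. Genes higher and lower by 1 log2 unit in liver numbered 1720 and 2767 without a filter, 261 and 705 at 1.5-fold, and 166 and 386 in vehicle mice alone, and 28 and 143 in CORT mice alone. Leaving out each mouse gave 55 to 93 and 187 to 246.

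The count of 15 hippocampal genes depended on the tool. It was 104 by DESeq2, 76 by limma-voom, 118 without a filter, 40 with a correction for GC content and length, 40 at an adjusted p under 0.1 and 5 with all 20 mice. In fits chosen after seeing the data it was 3 in vehicle mice, 2 in CORT mice and 0 in mice numbered up to 8. Leaving out each mouse gave 3 (without WT CORT mouse 3) to 20 (without WT vehicle mouse 4), with 6 without WT vehicle mouse 1 and 7 without WT vehicle mouse 6. Nr1d1, Ciart and Dbp were each called in 24 of 27 alternatives, Mt1 in 23, and Nr1d2, Hsp90b1 and Rbm28 in 21. Mt2 was called in 20, Rbm3, Cirbp and mt-Nd4 in 19, Calr in 12, Hnrnpm and Tubd1 in 11 and Pdia3 in 9. The count of 36 genes that followed the score was 117 by DESeq2, 88 without a filter and 2 with all 20 mice, and 11 (without AS vehicle mouse 2) to 33 (without AS vehicle mouse 14) when each mouse was left out. With all genes, 1 hippocampal component differed, and with all 20 hippocampal libraries 0 library measures did. The causes were not tested. No paired analysis was possible because the groups compared share no mouse number.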
